A study of Mus musculus with 8 samples.

Results

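Of the genes that move calcium in and out of the sarcoplasmic reticulum of heart muscle, 10 are described here, out of 41128 genes in the deposited table: Atp2a2, Pln, Ryr2, Casq2, Trdn, Hrc, Jph2, Slc8a1, Cacna1c and Camk2d. They were chosen by symbol for their role, and each matched 1 row. RNA was sequenced in 4 left ventricle samples of Nppb KO mice and 4 of wild-type littermates, all of strain FVB, aged 8 to 12 weeks. These samples are called ventricles below, though the labels do not say that each came from its own mouse. The Nppb product is processed to B-type natriuretic peptide, which the heart secretes under strain. The knockouts are labelled HOM and carry a CRISPR deletion in exon 2 of Nppb, and no source used here says how many founder lines they came from. The growth text also names Myh6-MerCreMer, nTnG and Sun1/sfGFP reporter mice bred on FVB/N, but no genotype label of these 8 samples lists those alleles. No source says that a treatment, load or surgery was applied to either genotype.

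With each heartbeat, calcium that enters through the L-type channel of the T-tubule opens ryanodine receptors on the facing reticulum, and the calcium released there drives contraction. Relaxation follows when the reticulum pump takes most of that calcium back and the sodium-calcium exchanger expels the rest. Calsequestrin buffers the stored calcium, triadin and the histidine-rich calcium-binding protein tie the store to the release channel, and junctophilin holds both membranes together. Lower pump and higher exchanger expression is a textbook feature of failing heart muscle, which makes these genes a common readout of ventricular state.

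Gene counts per library were 23063558 to 33729626 in knockouts and 20284865 to 34742840 in wild type. Nppb measured 1.54 to 4.13 normalized counts in knockouts and 1840 to 4619 in wild type, so all 8 libraries matched their labels. The 8 ventricular muscle markers averaged at least 1000 each, and summed to 2510289 to 2792961 in knockouts and 2649610 to 2821964 in wild type. Fibroblast, endothelial, macrophage, erythroid, atrial, skeletal muscle and adipocyte marker sums overlapped between genotypes. Of the macrophage markers, 6 of 6 had estimates above 0 (median log2 fold change 0.15). Among them 1 was at an unadjusted limma p under 0.05, against 6.26% of all genes. Estimates above 0 numbered 5 of 6 for endothelial markers (median 0.044), 3 of 6 for fibroblast (0.0066) and 1 of 2 tested for atrial (0.18). They numbered 0 of 8 for ventricular muscle (median -0.035), 0 of 5 for erythroid (-0.083) and 0 of 3 tested for skeletal muscle (-0.11). In each of these lists 0 markers passed the adjusted threshold. Smooth muscle and pericyte marker sums did not overlap, with a summed normalized count of 18475 to 19757 in knockouts and 17415 to 18060 in wild type. Of these markers 6 of 6 were tested, 5 had estimates above 0 (median 0.12) and 0 passed. At an unadjusted limma p under 0.05 there were also 0, against 6.26% of all genes. Of single genes tested 3.76% did not overlap, and no such share was taken for sums of genes. Atrial markers summed to 793 to 986 in knockouts and 864 to 944 in wild type. Since tissue was sequenced in bulk, fewer cells of a type and less RNA per cell cannot be told apart.

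RefSeq promoter windows (build GRCm38.p6) were found for 8 members, and not for Atp2a2 or Trdn. Shown here are the 250 bases before the start of Pln, Slc8a1, Casq2 and Ryr2, which enter the ratios compared further on and have a single window each. Cacna1c also enters a ratio but has 3 windows, and none of them is printed. They lie at chr10:53337436-53337685 (forward strand, Pln), chr17:81738388-81738637 (reverse strand, Slc8a1), chr3:102086165-102086414 (forward strand, Casq2) and chr13:12106946-12107195 (reverse strand, Ryr2). Capitals mark matches, on either strand, to 4 motifs: the letters CANNTG for the E-box bound by many transcription factors, AGATAA for the site of the cardiac zinc-finger factors, TATAAA for the TATA box, and the MEF2 consensus by name. The muscle motif M-CAT, with the letters CATTCC, and the CArG box were also searched and had no match in these windows.
Pln: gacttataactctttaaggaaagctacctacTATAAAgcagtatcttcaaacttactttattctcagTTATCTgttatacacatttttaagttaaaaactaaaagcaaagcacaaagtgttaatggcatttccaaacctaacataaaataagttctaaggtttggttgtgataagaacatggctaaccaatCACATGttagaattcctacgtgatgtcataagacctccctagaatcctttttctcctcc
Slc8a1: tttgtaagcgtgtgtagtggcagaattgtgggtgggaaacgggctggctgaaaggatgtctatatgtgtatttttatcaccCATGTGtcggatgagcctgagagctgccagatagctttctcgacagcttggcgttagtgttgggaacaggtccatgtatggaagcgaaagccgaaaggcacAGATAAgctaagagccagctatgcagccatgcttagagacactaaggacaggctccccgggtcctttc
Casq2: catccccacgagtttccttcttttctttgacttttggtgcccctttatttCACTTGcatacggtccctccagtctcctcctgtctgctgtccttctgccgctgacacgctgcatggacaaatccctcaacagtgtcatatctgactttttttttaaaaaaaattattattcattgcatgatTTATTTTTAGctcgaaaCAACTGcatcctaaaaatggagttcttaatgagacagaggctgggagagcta
Ryr2: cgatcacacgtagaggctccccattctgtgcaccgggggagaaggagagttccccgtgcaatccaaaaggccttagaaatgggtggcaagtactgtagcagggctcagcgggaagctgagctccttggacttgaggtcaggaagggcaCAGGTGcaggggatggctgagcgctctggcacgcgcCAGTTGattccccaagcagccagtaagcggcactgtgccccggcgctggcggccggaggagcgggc
Each of the 4 windows holds an E-box, as do 66.2% of 32851 promoter windows of the same length. A MEF2 match lies 69 bases before the start of Casq2, where 2.92% of all windows hold such a match. Matches to AGATAA lie 183 bases before the start of Pln and 68 bases before that of Slc8a1, against 9.99% of all windows with at least 1. The TATA letters of Pln lie 219 bases from its start and are found in 12.4% of windows. No match overlaps another here. The windows also differ in base composition, with a GC content of 32.8% for Pln, 41.6% for Casq2, 50.4% for Slc8a1 and 63.2% for Ryr2, beside a median of 52.4% over all windows.

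The comparison asks whether ventricles that lack Nppb express the calcium cycling genes at other levels. By limma on log2(normalized count + 1), with Benjamini-Hochberg adjustment over 16590 genes, 0 of the 10 members passed in either direction at an adjusted p under 0.05, where 0.0121% of all genes tested passed, 0.00603% in each direction. At an unadjusted p under 0.05 the count was also 0 of 10, against 6.26% of all genes, 2.98% higher and 3.29% lower. EdgeR and DESeq2 on the recovered reads called 0 members, where 0.0121% and 0.291% of their genes were called, and both put 0 members at an unadjusted p under 0.05, against 6.31% and 4.57%. Estimates were above 0 for 5 of the 10 members, against 50.9% of all genes tested. The members' median estimate on the log2 scale was -0.0093, beside 0.0023 over all genes. The genotypes overlapped in normalized count for every member, whereas 3.76% of all genes did not overlap. All 10 members exceeded the filter of a mean of 10, with 2649 to 311758 reads per library. The 95% intervals of the 10 differences together ran from 14.5% lower to 16.8% higher in knockouts, so larger differences of a member lie outside its interval.

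**Figure D1:**
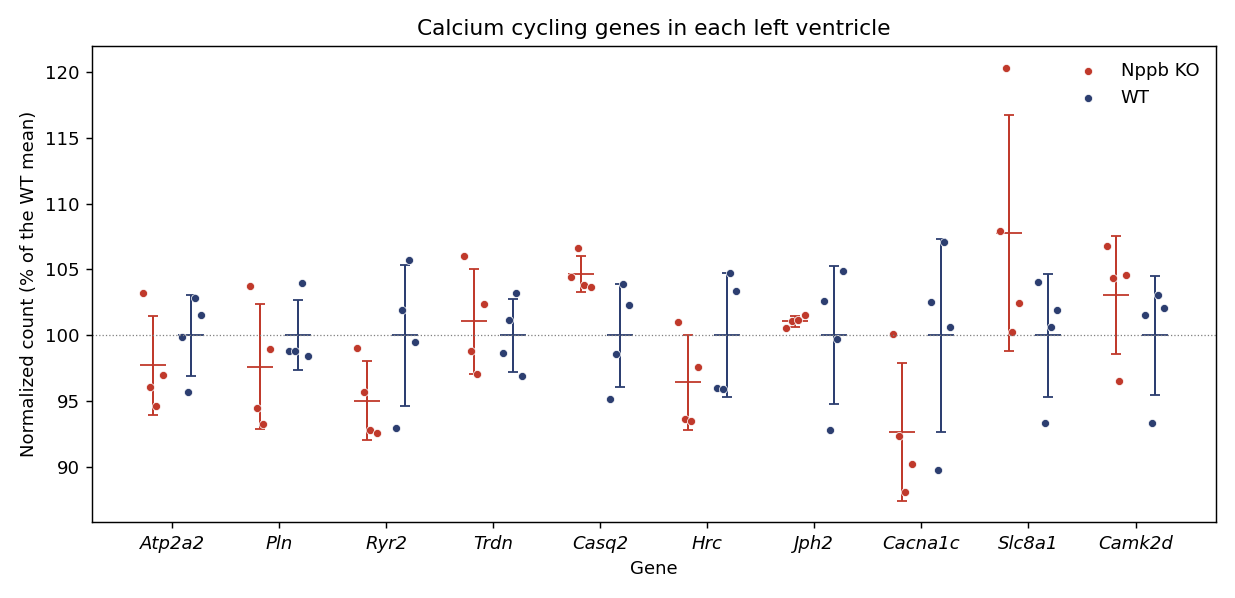
Normalized count of each calcium cycling gene in each ventricle, as a percentage of the wild-type mean of that gene; points are samples, Nppb KO left of wild type, with the mean and SD of 4. Every gene's genotypes overlap, and the widest spread is that of Slc8a1 in knockouts, where replicate 2 stands highest.

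Atp2a2 encodes SERCA2, the pump that returns calcium to the reticulum. It lies at chr5:122453513-122502225 on the reverse strand (mm10) and is the member with the most reads, ranking 14 by normalized count among the 16590 genes tested. Its normalized count was 245596, 228741, 225284 and 230830 in knockout replicates 1 to 4, and 237792, 227856, 244723 and 241717 in wild-type replicates 1 to 4. Knockout replicate 1 was the highest of all 8 and knockout replicate 3 the lowest, so the knockouts span the whole wild-type range. The difference was -0.033 on the log2 scale (SE 0.045; limma adjusted p = 0.931), with a 95% interval of 8.49% lower to 4.33% higher. This transcript alone took 0.894% ± 0.0240 of all gene reads in knockouts and 0.900% ± 0.0207 in wild type (SD, n = 4 each).

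Pln encodes phospholamban, a small membrane protein that slows the pump until it is phosphorylated. It lies at chr10:53337667-53345987 on the forward strand, inside Cep85l on the opposite strand, and shares 1785 bases of exon in all with Cep85l and Gm47644, both opposite to it; Gm47644 was not analysed here. Its normalized count was 86437, 78762, 77710 and 82442 in knockouts, and 82332, 82334, 86657 and 82008 in wild type. Knockout replicates 2 and 3 were below every wild-type value, while knockout replicate 1 was above 3 of the 4. The log2 difference was -0.036 (SE 0.045; limma adjusted p = 0.928). No source used here says if reads were assigned by strand, so reads of Pln and of these opposite genes cannot be told apart.

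Ryr2 is the cardiac ryanodine receptor, the channel that releases calcium from the store. The gene spans 554 kb at chr13:11553102-12106945 on the reverse strand, with 107 merged exons. It measured 86285, 83418, 80901 and 80686 in knockouts, and 80992, 88804, 92117 and 86694 in wild type. Knockout replicates 3 and 4 lay below all wild-type samples, and wild-type replicate 1 lay among the knockouts. The estimate was -0.072 (SE 0.047; limma adjusted p = 0.817), with an interval of 11.2% lower to 1.90% higher. Trdn, triadin, which anchors calsequestrin to that channel, lies at chr10:33080554-33476709 on the forward strand. Its counts were 4801, 4475, 4393 and 4634 in knockouts, and 4467, 4580, 4674 and 4389 in wild type, 2 knockouts above and 2 below the wild-type mean. Its estimate was 0.015 (SE 0.043; limma adjusted p = 0.978).

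Casq2, cardiac calsequestrin, is the main calcium buffer inside the reticulum, at chr3:102086415-102146514 on the forward strand. It measured 10441, 10664, 10381 and 10365 in knockouts, and 9517, 9860, 10387 and 10233 in wild type. All 4 knockouts were above the wild-type mean, but wild-type replicate 3 was above 2 of them. The log2 difference was 0.066 (SE 0.041; limma adjusted p = 0.814), an interval of 1.43% lower to 11.2% higher, and an exact two-sided permutation test over the 70 assignments gave p = 0.0857. Hrc, the histidine-rich calcium-binding protein of the lumen, lies at chr7:45335290-45338974 on the forward strand and measured 14181, 13139, 13117 and 13692 in knockouts and 13471, 13465, 14697 and 14507 in wild type. Knockout replicates 2 and 3 were below all wild-type samples and the other 2 were within their range. Its estimate was -0.052 (SE 0.045; limma adjusted p = 0.870).

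Jph2, junctophilin 2, spans the cleft between T-tubule and reticulum and lies at chr2:163336242-163397993 on the reverse strand. The knockouts measured 8240, 8283, 8292 and 8322, nearly equal, and the wild types 8411, 7608, 8171 and 8597. The knockout coefficient of variation was 0.407%, against 5.24% in wild type, and all 4 knockouts were inside the wild-type range. Knockout libraries held 7388 to 10728 Jph2 reads, and random sampling of so many reads is expected to spread more than 0.407%. The closeness of these 4 values is therefore not a measure of steadiness in knockouts, and the difference in spread was not tested. The log2 difference was 0.017 (SE 0.044; limma adjusted p = 0.975).

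Cacna1c encodes the pore of the cardiac L-type calcium channel, at chr6:118587240-119196418 on the reverse strand. Its normalized count was 11474, 10591, 10097 and 10344 in knockouts, and 11756, 10295, 12274 and 11538 in wild type. Wild-type replicates 1, 3 and 4 lay above all knockouts, and wild-type replicate 2 lay among the lowest knockouts. It had the lowest estimate of the members, -0.11 on the log2 scale (SE 0.055; limma adjusted p = 0.797), an interval of 14.5% lower to 0.631% higher. Without wild-type replicate 2 the estimate was -0.16 (limma adjusted p = 0.424). Slc8a1, the sodium-calcium exchanger NCX1, lies at chr17:81373105-81738377 on the reverse strand and shares 304 bases of exon with genes on the opposite strand. It measured 10015, 11163, 9303 and 9507 in knockouts, and 9656, 8661, 9333 and 9458 in wild type. Knockout replicates 1 and 2 were above every wild type, and the other 2 were within the wild-type range. Its estimate was the highest of the members, 0.11 (SE 0.056; limma adjusted p = 0.801), with an interval of 0.879% lower to 16.8% higher. Without knockout replicate 2 it was 0.051. The authors' deposited table gives Slc8a1 in knockouts 108% of the wild-type level with an unadjusted p of 0.0494 and an adjusted p of 0.588, the smallest of any member there. It is the 1 member of 10 with an unadjusted p under 0.05 in the authors' deposited table, against 3.49% of all its genes. By the authors' deposited table, of the 10 members 0 have an adjusted p under 0.05, against 0.37% of the genes with an adjusted p.

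Camk2d encodes the delta form of the calcium/calmodulin kinase, which phosphorylates phospholamban, the release channel and the L-type channel. It lies at chr3:126596302-126846326 on the forward strand and measured 3650, 3567, 3302 and 3575 in knockouts and 3472, 3191, 3525 and 3490 in wild type. Knockout replicates 1, 2 and 4 were above every wild type, and knockout replicate 3 was below 3 of them. The estimate was 0.043 (SE 0.047; limma adjusted p = 0.908).

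**Figure D2:**
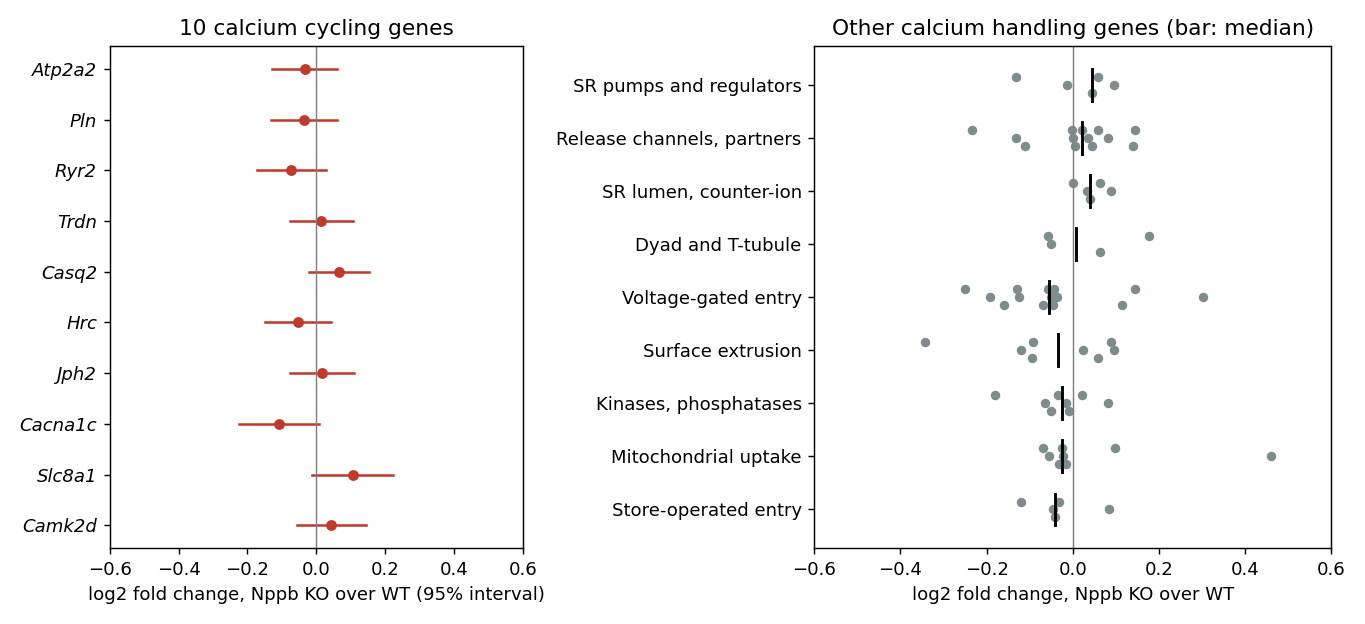
Left, log2 fold change of each calcium cycling gene, Nppb KO over wild type, with its 95% limma interval; right, log2 fold changes of the other tested calcium handling genes by role, with each role's median as a bar. All 10 intervals on the left include 0, and the medians on the right lie between -0.054 and 0.044.

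Balance between parts of the calcium cycle was read from 4 ratios within each ventricle, which do not depend on the scaling between libraries. The ratio of Pln to Atp2a2 counts, brake to pump, was 34.96% ± 0.611 in knockouts and 35.02% ± 0.956 in wild type (SD, n = 4 each; exact two-sided permutation p = 0.914). Its values were 35.2%, 34.4%, 34.5% and 35.7% in knockouts and 34.6%, 36.1%, 35.4% and 33.9% in wild type, fully overlapping. Slc8a1 over Atp2a2, exchanger to pump, was 4.08%, 4.88%, 4.13% and 4.12% in knockouts and 4.06%, 3.80%, 3.81% and 3.91% in wild type. Every knockout was above every wild type, but the lowest knockout and the highest wild type nearly touch. Casq2 over Ryr2, buffer to release channel, was 12.1%, 12.8%, 12.8% and 12.8% in knockouts and 11.8%, 11.1%, 11.3% and 11.8% in wild type, again without overlap. Cacna1c over Ryr2, entry to release channel, was 12.8% ± 0.346 in knockouts and 13.2% ± 1.203 in wild type (SD, n = 4 each; exact permutation p = 0.629).

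Slc8a1 over Atp2a2 differed by 0.14 on the log2 scale, 10.1% higher in knockouts, and Casq2 over Ryr2 also by 0.14, or 10.1%. Both exact two-sided permutation tests gave p = 0.0286, the smallest that 4 against 4 allows, and p = 0.0571 after adjustment over the 4 ratios, so neither passed. Among all other tested genes, 3.69% did not overlap between genotypes when divided by Atp2a2 and 4.40% when divided by Ryr2. Without knockout replicate 2, the exchanger to pump difference was 0.077; without any other single ventricle it lay between 0.127 and 0.163. Leaving out each ventricle in turn gave 0.123 to 0.159 for Casq2 over Ryr2. The summed count of the smooth muscle and pericyte markers, 18475 to 19757 in knockouts and 17415 to 18060 in wild type, also did not overlap. Of single genes tested 3.76% did not, and no such share was taken for sums. The marker sum was not set against either ratio sample by sample, and its part in them was not tested.

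**Figure D3:**
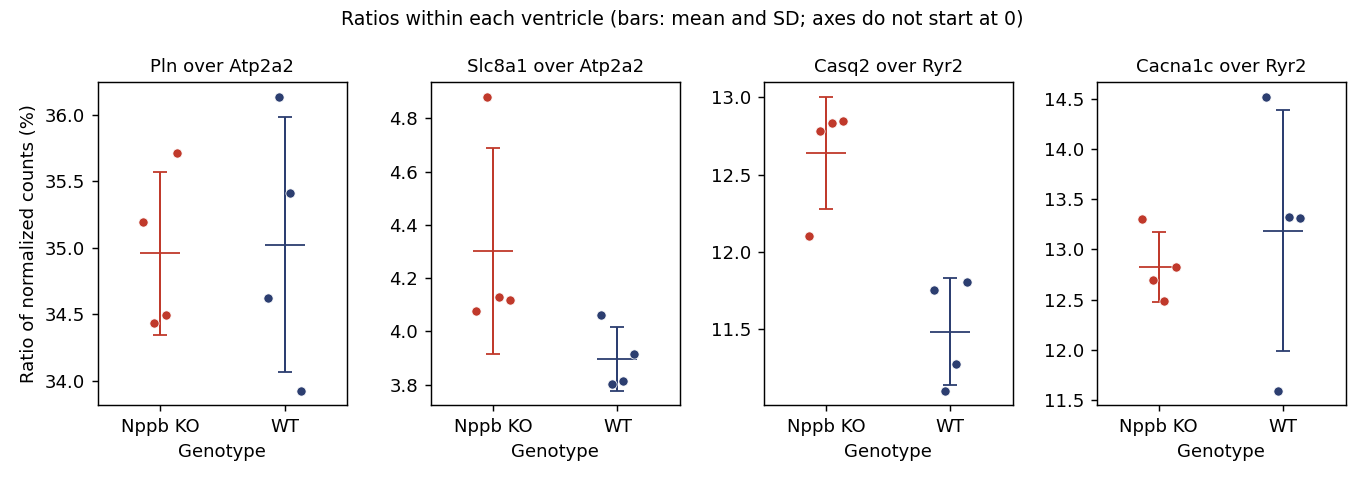
Ratios of normalized counts within each ventricle, in percent, Nppb KO left of wild type; points are samples, with the mean and SD of 4, and the axes do not start at 0. Pln over Atp2a2 overlaps fully, while Slc8a1 over Atp2a2 (4.08% or more in knockouts, 4.06% or less in wild type) and Casq2 over Ryr2 (12.1% or more in knockouts, 11.8% or less in wild type) do not overlap.

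Levels can be set side by side only per length, as normalized counts per kb of annotated exon, here the merged exons of all transcripts in GENCODE M21. From high to low, Atp2a2 stood at 38252 ± 1472 per kb in knockouts and 39142 ± 1208 in wild type (SD, n = 4 each), and Pln at 29481 ± 1435 in knockouts and 30204 ± 805 in wild type. Hrc followed with 5274 in knockouts and 5470 in wild type, then Casq2 with 3824 in knockouts and 3655 in wild type. Ryr2 stood at 2877 in knockouts and 3027 in wild type, and Jph2 at 1947 in knockouts and 1926 in wild type. Slc8a1, Cacna1c and Trdn were close together, at 532, 501 and 489 per kb in knockouts and 493, 541 and 484 in wild type; their order differs between genotypes and their SDs of 13.4 to 44.3 span the gaps. Camk2d was lowest, at 157 in knockouts and 152 in wild type, and the members spread over a 250.7-fold range. With exons of the basic transcript set instead, Ryr2 (4543 in knockouts, 4781 in wild type) stood above Casq2. Atp2a2 was then at 44080 in knockouts and 45106 in wild type, and Camk2d at 413 in knockouts and 401 in wild type, a narrower range. Neighbouring places in this order and the width of the range thus depend on the annotation.

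Most members were the dominant copy of their family in exon-length units. Atp2a2 made up 99.9% of the Atp2a level in both genotypes, with Atp2a1, the fast skeletal pump, at 2.65 per kb in knockouts and 2.48 in wild type. Ryr2 held 99.8% of the ryanodine receptor level in each genotype, and Slc8a1 held 99.4% of the exchanger level in knockouts and 99.3% in wild type. Jph2 held 94.2% ± 0.448 in knockouts and 93.9% ± 0.603 in wild type, with Jph1 next. Casq1, the skeletal calsequestrin, contributed 17.03% ± 2.69 of the calsequestrin level in knockouts and 17.4% ± 3.07 in wild type (SD, n = 4 each). For pore subunits of voltage-gated calcium channels, only Cacna1c, Cacna1d, Cacna1g, Cacna1h and Cacna1s were compared, and other pore genes were not included. Of their summed level Cacna1c held 85.6% in knockouts and 84.9% in wild type. Cacna1g, a T-type pore, followed with 8.56% in knockouts and 9.14% in wild type. In the kinase family Camk2d was not dominant by this measure: it held 41.4% ± 1.55 in knockouts and 40.0% ± 0.486 in wild type, beside Camk2g with 40.9% in knockouts and 41.1% in wild type. Basic-set exons put Camk2d at 53.0% in knockouts and 51.5% in wild type, above Camk2g at 33.3% in knockouts and 33.7% in wild type. Paralogs share sequence, and no source used here says how reads with several alignments were treated.

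**Figure D4:**
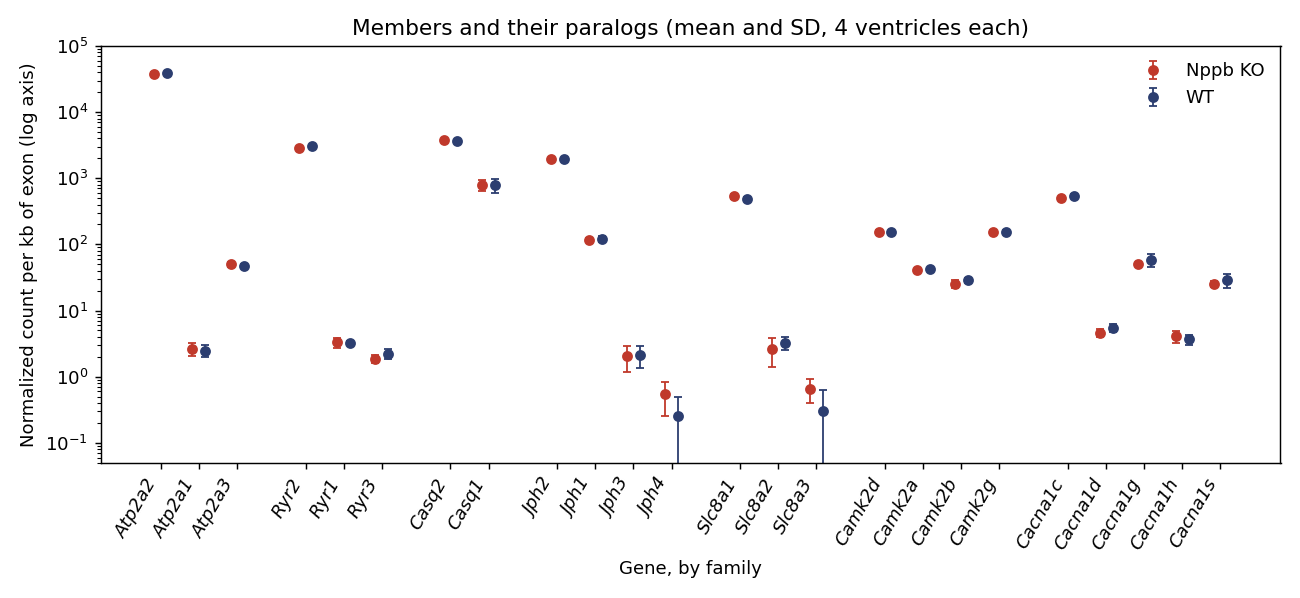
Normalized count per kb of exon (log axis) for members and their paralogs, by family; points are means of 4 ventricles, Nppb KO left of wild type, with SD. Atp2a2 holds 99.9% and Ryr2 99.8% of their family's summed level in both genotypes, and Slc8a1 99.4% in knockouts and 99.3% in wild type. Camk2d and Camk2g are level with each other by the merged exons of all transcripts used here, but with basic-set exons Camk2d stands above Camk2g.

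Spread within genotype was also read for the members. Their residual SD on the log2 scale, within genotype, had a median of 0.059 (range 0.042 for Casq2 to 0.096 for Slc8a1), beside a median of 0.14 for all 16590 genes tested and 0.068 for the 2792 genes with a mean of at least 1000. Coefficients of variation within a genotype ranged from 0.407%, for Jph2 in knockouts, to 8.33%, for Slc8a1 in knockouts. The value for Jph2 is smaller than the spread expected from sampling of reads alone. Slc8a1 and Cacna1c were the least steady members and had the estimates farthest from 0. Among the genes with a mean of at least 1000, their residual SDs stood at percentiles 75 and 74.7. Those of the other members ranged from percentile 12.5 (Casq2) to 45.8 (Camk2d).

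Deviations in each ventricle were also read over all members. Averaged over the 10 genes, the log2 value relative to the wild-type mean was 0.047, 0.0019, -0.058 and -0.014 in knockout replicates 1 to 4, and -0.011, -0.057, 0.050 and 0.018 in wild-type replicates 1 to 4. The 8 ventricular muscle markers read 0.062, -0.070, -0.14 and -0.027 in knockouts and -0.031, -0.066, 0.073 and 0.024 in wild type on the same scale, so knockout replicate 1 and wild-type replicate 3 were highest on both and knockout replicate 3 was lowest on both. After removing genotype means, 39 of the 45 member pairs had a Pearson r above 0 over the 8 ventricles, with a median of 0.45. The highest was Pln with Trdn (0.94) and the lowest Ryr2 with Jph2 (-0.41). Other gene pairs were not set beside them. These values share libraries and size factors and are given as a description. Next, 12864 other genes with a mean of at least 50 were ranked by how closely their log2 values over the 8 ventricles resembled the members' average. Highest were Myl2, the ventricular myosin light chain (Pearson r = 0.97), Dmd, dystrophin (0.97), Acadsb, an acyl-CoA dehydrogenase (0.96), the noncoding Gm13479 (0.96) and Hnrnpa2b1, an RNA-binding protein (0.96). As the extremes of so many genes over 8 samples, values this high can also arise by chance, which was not tested.

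**Figure D5:**
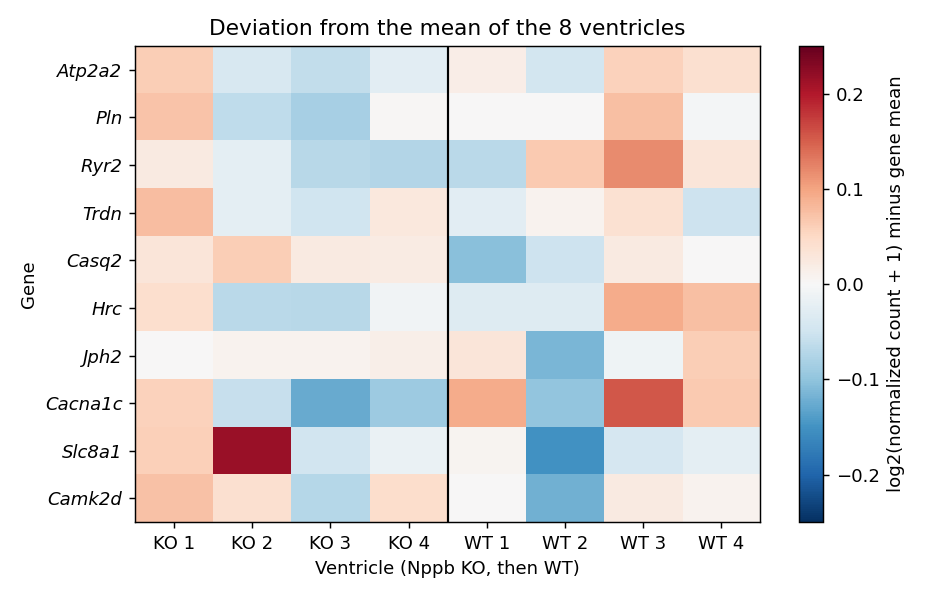
Deviation of each calcium cycling gene's log2(normalized count + 1) from its mean over the 8 ventricles (colour), Nppb KO to the left of the line and wild type to the right. Knockout replicate 1 and wild-type replicate 3 are above the mean for most genes, wild-type replicate 2 is low for Slc8a1, Camk2d, Jph2 and Cacna1c, and Slc8a1 in knockout replicate 2 is the largest deviation.

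Another 80 calcium handling genes in the files, listed by role, were read from the same fit, and 70 were high enough to test. None passed in either direction by limma, edgeR or DESeq2. The authors' deposited table gives an adjusted p for 37 of the 80, and 0 of these are under 0.05, against 0.37% of all genes with an adjusted p there. Their median log2 fold change was -0.017, with 31 above 0 and 39 below. By role, estimates above 0 numbered 3 of 5 for pump regulators, 9 of 13 for release channels and partners, 5 of 5 for the lumen and counter-ion group, 2 of 4 around the dyad and 3 of 14 for voltage-gated entry. They numbered 4 of 8 for surface extrusion, 2 of 8 for kinases and phosphatases, 2 of 8 for mitochondrial uptake and 1 of 5 for store-operated entry, where 50.9% of all genes tested were above 0. At an unadjusted p under 0.05, 6 of 70 (8.57%) were counted by limma, 3 in each direction, against 6.26% of all genes. EdgeR counted 6 and DESeq2 4, against 6.31% and 4.57% of all genes. Genotypes did not overlap for 5 of the 70, or 7.14%, against 3.76% of all genes.

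Regulators of the pump gave no called difference among 5 tested. Ppp1r3a, a glycogen-targeting phosphatase subunit, had an estimate of 0.096 (SE 0.089), and Atp2a3, the pump of non-muscle cells, 0.058 (SE 0.083). S100a1, a calcium sensor that binds the pump and the release channel, was the most abundant regulator per length, at 7093 per kb in knockouts and 7166 in wild type. Sln, sarcolipin, the atrial relative of phospholamban, was at or below 3.30 normalized counts in every ventricle and was not tested, nor were Mrln, the skeletal micropeptide myoregulin, and Atp2a1. Strit1, which encodes the DWORF micropeptide, was not analysed here.

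Among release channels and their partners 0 of 13 passed. Calm2, a calmodulin gene, measured 1796 ± 67.3 in knockouts and 1623 ± 14.97 in wild type (SD, n = 4 each), without overlap, an estimate of 0.15 (SE 0.044; limma adjusted p = 0.661); the authors' deposited table gives it an adjusted p of 0.0990. Speg, a kinase of the junction between T-tubule and reticulum, measured 5198 ± 269 in knockouts and 5695 ± 290 in wild type, an estimate of -0.13 (SE 0.049; limma adjusted p = 0.742). Fkbp1b, the channel stabiliser calstabin 2, was too low to test, at 15.3 or below. In the lumen and counter-ion group 0 of 5 passed, with Calr, calreticulin, at 0.063 (SE 0.057) and Srl, sarcalumenin, the most abundant, at 0.040 (SE 0.038).

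Around the dyad 0 of 4 passed. Cav3, the muscle caveolin of T-tubules and surface membrane, measured 791 ± 36.2 in knockouts and 699 ± 15.96 in wild type (SD, n = 4 each), without overlap, an estimate of 0.18 (SE 0.053; limma adjusted p = 0.661). Ahnak, a large scaffold that binds L-type channel subunits, had an estimate of -0.050 (SE 0.064). In voltage-gated entry 0 of 14 passed, with a median of -0.054. Cacna1d, another L-type pore, measured -0.25 (SE 0.16), Cacna1g -0.19 (SE 0.13), and Rrad, an inhibitor of the L-type channel and the most abundant of the group, -0.12 (SE 0.15).

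Extrusion at the surface membrane had 0 of 8 passing. Fxyd1, phospholemman, the phosphorylation-controlled brake on the sodium pump, measured 2133 ± 27.9 in knockouts and 2273 ± 49.97 in wild type (SD, n = 4 each), without overlap, an estimate of -0.091 (SE 0.041; limma adjusted p = 0.770). Kinases and phosphatases gave 0 of 8, with Camk2b at -0.18 (SE 0.10), Ppp1cc, a catalytic subunit of protein phosphatase 1, at 0.081 (SE 0.055), and Prkaca, the catalytic subunit of protein kinase A, at -0.035 (SE 0.040). Mitochondrial uptake gave 0 of 8, with Mcub, a uniporter subunit, at 0.46 (SE 0.46), Micu2, a uniporter gatekeeper, at -0.055 (SE 0.056) and Smdt1, its essential regulator EMRE, at -0.033 (SE 0.055). Store-operated entry gave 0 of 5, with the store sensors Stim1 and Stim2 at -0.12 (SE 0.082) and 0.084 (SE 0.078), and the channel gene Orai3 at -0.032 (SE 0.10).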

How the data were processed

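Total RNA of left ventricles (900 ng) went into stranded libraries and paired 125 bp sequencing, per the labels' protocols. The authors deposited normalized counts (a signal of gene counts divided by size factors). Their deposited comparison table gives p-values, adjusted p-values, geometric means and a log2 ratio of wild type to knockout. The submitters' processing notes list STAR, DESeq2 and build mm10. Versions, annotation, counting tool, strand setting and handling of multiple alignments are not stated in what was used. Each sample's values were whole multiples of its smallest value above 0, within 0.01 for 100% of values, so reads and size factors (0.752 to 1.31) were recovered. Coordinates and exon lengths came from GENCODE M21, which matched 40254 IDs.

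The main test was limma 3.58.1 (R 4.3.3) with a variance trend and robust moderation on log2(normalized count + 1), 16590 genes with a mean of at least 10, Benjamini-Hochberg threshold 0.05; folds on this scale understate changes of low genes. Intervals are limma's at 95%. Ratios used exact permutation tests (SciPy 1.17.1). Alternatives changed the pseudocount (0.5 or 5), filter, normalization, variance model and test (edgeR 4.0.16, DESeq2 1.42.0), added the replicate number as a block and left out each sample. Scripts were tested on simulated counts. The labels number the samples but do not say that each came from its own mouse, so p-values read the spread among 8 samples, which may be partly technical. No replicates were copies (smallest chi-square per degree of freedom 4.84).

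The members and lists were chosen with earlier results of these data known. Named genes were the 10 members and, in each role, genes past the threshold, the 2 with the smallest p and the most abundant per length, with Nppb as the label check and the 5 genes most like the members' average; Atp2a1, Casq1, Jph1, Camk2g, Cacna1g and the genes too low to test were named after their values were seen. Some genes that this rule names are not reported here. Protein sequences were not used here.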

Additional observations from a re-analysis of the deposited data

Results flagged for a closer look

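Of 74 groups of 4 values examined, 6 had an extreme value whose distance to its neighbour took up more of the group's range than Dixon's 95% limit for 4 values; about 1 in 20 does so by chance. Pln in wild-type replicate 3 was 86657 against 82008 to 82334 in the other wild types (gap 0.930 of the range). Camk2d in wild-type replicate 2 was 3191 against 3472 to 3525 (0.842). Ppp1r3a in knockout replicate 4 was 7764 against 6149 to 6367 in the other knockouts (0.865), and Prkaca there was 2545 against 2642 to 2650 (0.920). Slc8a1 over Atp2a2 in knockout replicate 2 was 4.88% against 4.08% to 4.13% (0.935), and Casq2 over Ryr2 in knockout replicate 1 was 12.1% against 12.8% in the others (0.916).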

How the results depend on the processing

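Under 21 alternatives 0 of the 210 refitted member values passed, and the smallest adjusted p was 0.0877 for Cacna1c without wild-type replicate 2 and knockout replicate 1. None of the other calcium handling genes was called in any alternative. Member signs held except for estimates near 0. Relative to the ventricular muscle markers of each sample, a scaling chosen after seeing the data that shifted the median of all genes by 0.043, Atp2a2 was at 0.0097 and Pln at 0.0073. Quantile normalization put Pln at 0.037. That method gives genes of equal rank equal values, and it put Atp2a2 at -2.4e-15, so it could not show a difference of Atp2a2. Without wild-type replicate 2 and knockout replicate 1 together, also chosen after seeing the data, Trdn was at -0.0029, Jph2 at -0.016 and Camk2d at -0.0068. Leaving out each sample gave Trdn -0.0085 to 0.034, Jph2 -0.019 to 0.040, Camk2d 0.010 to 0.074, Pln over Atp2a2 -0.018 to 0.013 and Cacna1c over Ryr2 -0.096 to 0.012. Over all genes 1 was higher and 1 lower: 3 and 20 by DESeq2, 0 and 3 with the replicate block, 4 lower with no filter, 3 lower with sample weights, 8 and 10 without the 2 named samples, and 0 to 2 higher and 1 to 4 lower leaving out each sample. The causes were not tested. Same-numbered samples deviated with correlations of -0.11 to 0.0059, so no shared deviation by number was seen. Low correlations cannot tell whether the samples were paired. With the replicate block no member was called; the exact paired permutation tests of the ratios cannot go below p = 0.125, which Slc8a1 over Atp2a2 and Casq2 over Ryr2 reached. With 3 against 4 samples the smallest possible p is 0.0571. Depth limits the low paralogs and the genes too low to test.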
